A study of Mus musculus with 48 samples.

Results

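Between postnatal day 7 (P7) and postnatal day 14 (P14) the mouse cortex ends most cell production, builds synapses and begins to wrap axons in myelin. The change over that week was followed in mG-cKO cortex, in 2 bulk RNA-seq libraries at P7 and 2 at P14, and was set beside the same step in 2 Ctrl libraries at each age. Ctrl and mG-cKO are the genotype names given by the submitters. The labels neither spell out mG, the allele or any Cre driver nor name the altered gene, so its loss could not be checked, and they give no sex, strain or pooling of animals and no treatment other than age. Cortex was the labelled tissue of every library. Replicate 3 of each genotype at each age was not analysed here. A gene entered the description when its mean over the 4 mG-cKO libraries was at least 0.5 FPKM (fragments per length of gene at equal sequencing depth), the authors' deposited unit. That held for 16767 of 54100 listed genes, 13507 of them protein coding, against 16619 by the same rule in Ctrl and 16169 in both. Of the 16767, 501 were under 0.5 FPKM at P7 only and 542 at P14 only, so these passed through 1 age. At the edge, Tspan32os and Has1 averaged 0.5001 and 0.5005 FPKM and were kept, and Tlr2 at 0.4999 FPKM was not.

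As background, oligodendrocytes are the myelin-forming cells of the brain. Their precursors divide, pass through a short premyelinating state and then switch on large amounts of structural myelin genes, under the transcription factors SOX10 and MYRF. Over the same days cortical neurons lose their growth and guidance genes and exchange early receptor and channel subunits for adult ones, astrocytes take up glutamate and potassium clearance, and microglia acquire their resting adult profile.

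The low values corresponded to 19.9 to 25.8 M reads per mG-cKO library and 20.5 to 30.9 M per Ctrl library. The libraries held cortical neuron, glial and vascular markers. Slc17a7, the vesicular glutamate transporter of cortical excitatory neurons, lay between 74.5 and 223 FPKM and Tbr1 between 17.2 and 20.2 FPKM over the mG-cKO libraries. The choroid plexus list, 11 genes of the tissue that lines the ventricles, summed to between 5.49 and 7.68 FPKM in mG-cKO. It summed to 253 FPKM in Ctrl replicate 2 at P7 and 252 FPKM in Ctrl replicate 2 at P14, almost all from Ttr, against 5.13 and 9.12 FPKM in the other Ctrl libraries. The 10 striatal genes summed to 136 and 81.6 FPKM at P7 and to 353 and 238 FPKM at P14 in mG-cKO, so replicate 1 was higher at both ages. Ctrl gave 65.9 and 90.5 FPKM at P7 and 219 and 159 FPKM at P14. Whether the amount of adjoining striatum differed between dissections was not tested, and values of striatal genes are given with that spread. The median gene differed between the libraries of a group by 0.0759 to 0.0817 on the log2 scale in mG-cKO. Nothing in the labels ties each library to its own animal, so p-values measure only the spread between libraries, which may be technical. In bulk tissue, fewer cells of a type and less RNA per cell cannot be told apart.

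The week changed a large share of the mG-cKO transcriptome. All differences below are P14 minus P7 in log2(FPKM + 1), with the standard error from a limma fit to the 8 libraries and p-values adjusted by Benjamini-Hochberg over all 16767 genes. At an adjusted p under 0.05, 7845 genes changed in mG-cKO, 46.8% of those tested: 3516 rose (21%) and 4329 fell (25.8%). Fitted beside the P1 and P45 libraries as well, 20 in all, the count was 1201. In 631 genes (3.76%) the change was called and at least 1 on the log2 scale, with 323 rising and 308 falling. Ctrl cortex changed in 8801 of the same genes (52.5%), with 4040 rising (24.1%) and 4761 falling (28.4%). The count was 1830 with all 20 libraries and 8833 with the 16 of replicates 1 and 2. Without both Ctrl libraries with high Ttr, which leaves 1 at each age, it was 5669. Of the genes called in mG-cKO, 6645 were called in the same direction in Ctrl, which is 84.7% of the mG-cKO calls and 75.5% of the Ctrl calls. Another 22 were called in opposite directions. Over the 16767 genes the changes in both genotypes had a Pearson correlation of 0.849 and a Spearman correlation of 0.839, as a description across genes, which are not replicates. The SD of the change over genes was 0.453 in mG-cKO and 0.526 in Ctrl.

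A test of the difference between the changes, mG-cKO minus Ctrl, called 31 genes (0.185%): 11 with a more positive change in mG-cKO (0.0656%) and 20 with a more negative one (0.119%). At an unadjusted p under 0.05 there were 2465. This count rested on few libraries: it was 0 without Ctrl P7 replicate 2, where the smallest adjusted p was 0.0529, and 5 without mG-cKO P14 replicate 2. It was 7 without Ctrl P14 replicate 1, 13 without Ctrl P14 replicate 2, 18 without Ctrl P7 replicate 1, 13 without mG-cKO P7 replicate 1, 18 without mG-cKO P7 replicate 2 and 24 without mG-cKO P14 replicate 1. Without both Ctrl libraries with high Ttr it was 0 and the smallest adjusted p was 0.164. Over all the fits run, the smallest adjusted p ranged from 0.000129 to 0.164. Each of the 31 kept its direction in every fit that tested it.

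**Figure D1:**
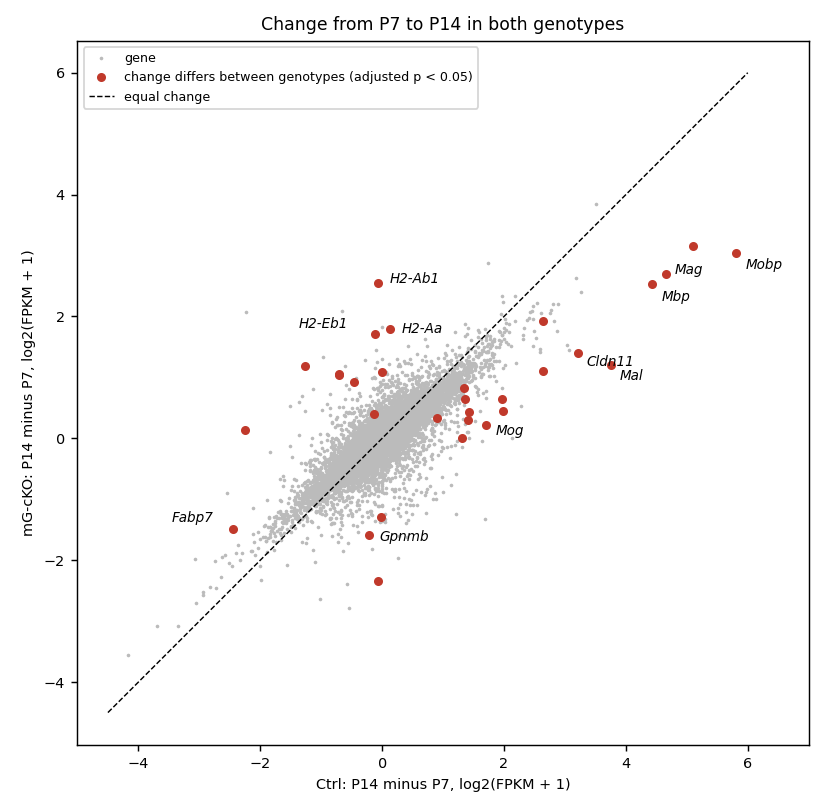
Change from P7 to P14 of 16767 genes, as the difference in log2(FPKM + 1), in Ctrl (horizontal) and mG-cKO (vertical). Each point is a gene, the dashed line marks equal change, and red points are the 31 genes whose change differed between genotypes by the limma test: myelin sheath genes lie below the line at the right and class II genes above it near a Ctrl change of 0.

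Premyelinating oligodendrocyte genes changed in both genotypes, most of the called ones upwards. Of 14 premyelinating genes 8 rose and 4 fell in mG-cKO, with a median change of 0.47, and 9 rose and 4 fell in Ctrl, with a median of 0.48. The median over all genes tested was -0.03 in both genotypes. No premyelinating gene passed the test of the difference.

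Bcas1, which marks newly formed oligodendrocytes, measured 5.603 and 6.95 FPKM at P7 and 28.9 and 28.5 at P14 in mG-cKO, a rise of 2.04 ± 0.09 (adjusted p = 1.71e-05). In Ctrl it measured 6.43 and 7.402 FPKM at P7 and 29.9 and 29.3 at P14. At each age the levels in both genotypes lay close together, and no P7 library reached a P14 library. Gpr17, a receptor of committed precursors that falls silent in myelinating cells, measured 11.7 and 13.8 FPKM at P7 and 43.6 and 44.2 at P14 in mG-cKO (1.71 ± 0.08, adjusted p = 1.7e-05). Its Ctrl values were 14.9 and 16.3 FPKM at P7 and 43.8 and 41.8 at P14. The difference between the genotypes' changes was 0.31 ± 0.11 (adjusted p = 0.286). Enpp6, a choline-releasing phosphodiesterase switched on as oligodendrocytes begin to differentiate, rose by 1.75 ± 0.11 in mG-cKO (adjusted p = 4.05e-05), from 0.399 and 0.739 FPKM at P7 to 4.23 and 4.25 at P14. Ctrl libraries held 0.645 and 0.636 FPKM at P7 and 5.38 and 5.22 at P14, and the difference of the changes was -0.19 ± 0.15 (adjusted p = 0.597).

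Among the regulators, 4 of 9 rose and 1 fell in mG-cKO, against 21% and 25.8% of all genes tested. Sox10 rose by 0.52 ± 0.10 (adjusted p = 0.00413) and its relative Sox8 by 0.60 ± 0.10 (adjusted p = 0.00245). Myrf, the factor that drives the myelin genes, measured 0.445 and 0.833 FPKM at P7 and 2.75 and 3.005 at P14 in mG-cKO and 0.675 and 0.585 FPKM at P7 and 4.501 and 4.11 at P14 in Ctrl. It rose in both, by 1.25 ± 0.12 (adjusted p = 0.000252) and 1.703 ± 0.12 (adjusted p = 4.28e-05), and the difference was -0.45 ± 0.17 (adjusted p = 0.303). Its P14 values were lower in both mG-cKO libraries than in either Ctrl library. Olig1 and Olig2, which specify the lineage, did not pass the test in mG-cKO (changes of 0.09 and -0.14).

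Of 11 precursor genes 4 rose and 4 fell in mG-cKO, against 21% rising and 25.8% falling over all genes tested. Pdgfra, the growth factor receptor of precursors, fell from 10.6 and 12.1 FPKM at P7 to 7.86 and 8.81 at P14 (-0.40 ± 0.08, adjusted p = 0.0049). The matrix proteoglycan Vcan fell from 12.8 and 12.1 FPKM at P7 to 3.51 and 3.65 at P14 (-1.55 ± 0.05, adjusted p = 6.07e-06). Neu4, a sialidase, rose by 1.61 ± 0.09 (adjusted p = 3.39e-05). In Ctrl the changes of these genes were -0.45, -1.62 and 1.71. The Ctrl levels of Pdgfra were 16.6 and 17.2 FPKM at P7 and 11.7 and 12.4 at P14, so at each age both mG-cKO libraries lay below both Ctrl libraries.

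Genes of the finished sheath rose as well, but by much less than in Ctrl. Of 24 listed sheath genes 18 were tested: 15 rose and 1 fell in mG-cKO, with a median change of 1.15, against 17 rising and 1 falling in Ctrl, with a median of 2.60. The difference was negative in 17 of the 18 and passed the test in 11, with a median of -1.50. The median difference over all genes tested was -0.01.

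Mbp, myelin basic protein, measured 9.48 and 11.4 FPKM at P7 and 69.3 and 60.3 at P14 in mG-cKO and 10.2 and 10.7 FPKM at P7 and 256 and 236 at P14 in Ctrl. Both genotypes started from like values, no P7 library overlapped a P14 library, and both mG-cKO libraries at P14 lay far below the Ctrl libraries. Its change was 2.53 ± 0.10 in mG-cKO (adjusted p = 1.18e-05) and 4.43 ± 0.10 in Ctrl (adjusted p = 1.49e-06), and the difference of -1.903 ± 0.14 had an adjusted p of 0.0094. Mal, a lipid-raft protein of compact myelin, measured 0.487 and 0.808 FPKM at P7 and 3.08 and 2.46 at P14 in mG-cKO and 0.8195 and 0.654 FPKM at P7 and 24.6 and 20.4 at P14 in Ctrl. The change in mG-cKO, 1.196 ± 0.14 (adjusted p = 0.000554), differed from that in Ctrl, 3.75 ± 0.14, by -2.56 ± 0.20 (adjusted p = 0.0094).

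Mobp, an oligodendrocyte basic protein, was near 0 at P7 in both genotypes. It measured 0.0366 and 0.0583 FPKM at P7 and 9.03 and 6.48 at P14 in mG-cKO and 0.04602 and 0.04302 FPKM at P7 and 61.9 and 53.7 at P14 in Ctrl. It rose by 3.05 ± 0.14 in mG-cKO (adjusted p = 1.59e-05), and its difference from Ctrl of -2.76 ± 0.19 was the most negative of the 31 (adjusted p = 0.0094). Mag, the glycoprotein that faces the axon, measured 0.529 and 0.674 FPKM at P7 and 10.1 and 8.81 at P14 in mG-cKO and 0.705 and 0.748 FPKM at P7 and 47.4 and 37.9 at P14 in Ctrl. Its change in mG-cKO was 2.702 ± 0.11 (adjusted p = 1.28e-05), and the difference was -1.95 ± 0.16 (adjusted p = 0.0114). In FPKM, the gain from P7 to P14 in mG-cKO was 9.75% of the Ctrl gain for Mal, 13.3% for Mobp, 21.1% for Mag and 23.1% for Mbp. Over the 23 listed sheath genes with a higher Ctrl mean at P14, including those under the 0.5 FPKM rule, that share had a median of 21.3%, with a lowest value of 0.512% (Ppp1r14a) and a highest of 109% (Car2). It was 7.34% for Mog, 8.94% for Opalin and 8.14% for Ermn.

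The promoters of Mobp and Mag are shown because their genes had among the most unequal rises and because they carry short core motifs of the lineage's factors. Each line gives 250 bases before the start of the gene from RefSeq on GRCm38.p6, 5′ to 3′ on the gene's strand. For Mobp (chr9:120149492-120149741, plus strand) capitals mark ACAAAG or its other strand CTTTGT, a SOX core. For Mag (chr7:30914864-30915113, minus strand) they mark CTGGCAC, or GTGCCAG on the other strand, a MYRF core.
Mobp: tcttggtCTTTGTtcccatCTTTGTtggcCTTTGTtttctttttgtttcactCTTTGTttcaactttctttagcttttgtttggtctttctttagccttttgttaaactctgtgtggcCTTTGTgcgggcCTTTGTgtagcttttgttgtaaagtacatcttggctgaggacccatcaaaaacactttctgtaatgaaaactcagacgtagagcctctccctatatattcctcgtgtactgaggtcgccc
Mag: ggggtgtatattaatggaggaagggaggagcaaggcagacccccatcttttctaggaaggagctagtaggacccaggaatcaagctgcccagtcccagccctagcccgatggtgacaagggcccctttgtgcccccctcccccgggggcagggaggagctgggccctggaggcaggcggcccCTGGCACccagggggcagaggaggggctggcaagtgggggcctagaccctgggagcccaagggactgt
Mobp held 6 SOX cores and was the only one of 27025 such windows with as many, and 16.5% of all windows held at least 1. Among sheath genes 5 of 17 windows held the SOX core and 3 of 17 held the MYRF core, which 4.14% of all windows held. None of the 10 premyelinating windows held either. In other lists the SOX core stood in 4 of 19 cell-cycle and 3 of 15 immature neuron windows. The MYRF core stood in 0 of 19 and 0 of 15. The Mag window also held 1 SOX core, left in lower case. Both motifs were searched on both strands, and a match describes letters, not binding.

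Other sheath genes followed the same order. Cldn11, the tight-junction protein of myelin, measured 7.16 and 7.42 FPKM at P7 and 22.4 and 19.2 at P14 in mG-cKO and 6.61 and 6.75 FPKM at P7 and 74.99 and 65.6 at P14 in Ctrl, with a difference of -1.82 ± 0.12 (adjusted p = 0.0094). Mog, on the outer face of the sheath, measured 6.59 and 5.797 FPKM at P7 and 7 and 7.83 at P14 in mG-cKO and did not pass the test (change 0.23 ± 0.09, adjusted p = 0.0771). It rose in Ctrl, where it measured 6.002 and 6.71 FPKM at P7 and 24.3 and 21.7 at P14, and the difference was -1.48 ± 0.13 (adjusted p = 0.0129). Ppp1r14a, a phosphatase inhibitor, had a change of 0.01 ± 0.10 in mG-cKO and of 1.31 ± 0.10 in Ctrl (difference -1.298 ± 0.14, adjusted p = 0.0266). Tspan2 rose by 0.30 ± 0.08 in mG-cKO (adjusted p = 0.0155) and by 1.401 ± 0.08 in Ctrl (difference -1.096 ± 0.11, adjusted p = 0.0203). Gsn, an actin-severing protein, measured 5.75 and 5.07 FPKM at P7 and 8.65 and 6.93 at P14 in mG-cKO. Its rise of 0.45 ± 0.12 (adjusted p = 0.0231) was lost without mG-cKO P7 replicate 2 (0.37, adjusted p = 0.11) or without mG-cKO P14 replicate 1 (0.31, adjusted p = 0.107), and its difference from Ctrl was -1.53 ± 0.17 (adjusted p = 0.0417).

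The other 7 tested sheath genes did not pass the test of the difference. Cnp, an early myelin enzyme, measured 17.2 and 20.6 FPKM at P7 and 55.7 and 51.6 at P14 in mG-cKO and 14.7 and 16.9 FPKM at P7 and 108 and 93.9 at P14 in Ctrl, with a difference of -1.14 ± 0.16 (adjusted p = 0.0814). The galactolipid enzymes Ugt8a and Fa2h had differences of -1.62 ± 0.20 and -1.19 ± 0.17 (adjusted p = 0.0593 and 0.0779). Car2, a carbonic anhydrase, rose by 0.83 ± 0.08 in mG-cKO and 1.005 ± 0.08 in Ctrl, with mG-cKO at 18.6 and 21.2 FPKM at P7 and 38.5 and 33.7 at P14. Plekhb1 rose by 0.95 ± 0.06 and 1.27 ± 0.06. Ndrg1 fell in both genotypes (-1.3002 ± 0.07 and -1.73 ± 0.07).

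The 6 sheath genes left out by the 0.5 FPKM rule were low in mG-cKO by that rule. Opalin, a marker of mature oligodendrocytes, measured 0.0273 and 0 FPKM at P7 and 0.388 and 0.273 at P14 in mG-cKO and 0.0191 and 0 FPKM at P7 and 4.21 and 2.901 at P14 in Ctrl. Ermn, a late cytoskeletal protein of the sheath, measured 0.1103 and 0.206 FPKM at P7 and 0.589 and 0.3502 at P14 in mG-cKO and 0.0867 and 0.176 FPKM at P7 and 4.601 and 3.32 at P14 in Ctrl. Gjb1, a gap-junction connexin, measured 0.352 and 0.292 FPKM at P7 and 0.604 and 0.429 at P14 in mG-cKO and 1.19 and 1.01 FPKM at P7 and 2.39 and 1.91 at P14 in Ctrl, so it was lower in both mG-cKO libraries already at P7. Aspa, Trf and Hapln2 were all low, and their highest value in any of the 8 libraries was 0.872 FPKM, for Hapln2 in Ctrl P14 replicate 1.

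**Figure D2:**
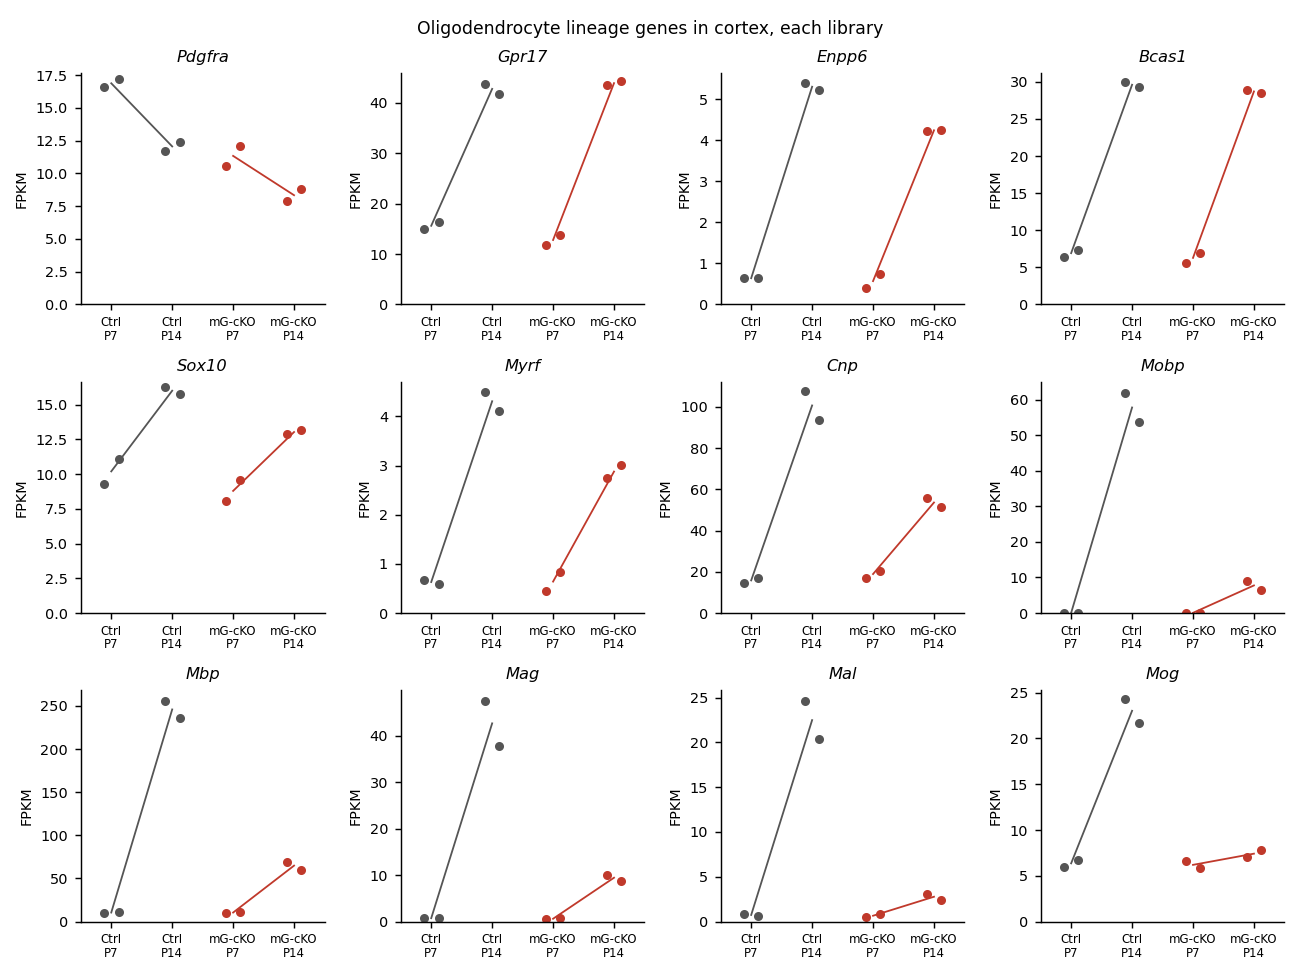
FPKM of 12 oligodendrocyte genes in each library, from precursor (Pdgfra) through premyelinating genes (Gpr17, Enpp6, Bcas1) and regulators (Sox10, Myrf) to the sheath; points are libraries, 2 per group, and lines join group means. Bcas1 reaches 28.5 to 29.9 FPKM in all 4 libraries at P14, while Mbp reaches 60.3 to 69.3 FPKM in mG-cKO and 236 to 256 FPKM in Ctrl.

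Cholesterol is a major lipid of myelin and is made locally in the brain. Of 21 synthesis genes 13 fell and 2 rose in mG-cKO, with a median of -0.30, and 15 fell and 1 rose in Ctrl, with a median of -0.52. The difference was positive in 17 of 21 and passed the test in none, and over all genes tested it was positive in 8154 and negative in 8613. Summed FPKM of the list was 489 and 487 at P7 and 361 and 379 at P14 in mG-cKO. In Ctrl the sum was 593 and 592 at P7 and 418 and 410 at P14. At each age both mG-cKO libraries therefore lay below both Ctrl libraries. Fdft1, which commits the pathway to sterols, measured 33.3 and 32.3 FPKM at P7 and 20.03 and 19.7 at P14 in mG-cKO (-0.70 ± 0.04, adjusted p = 3.18e-05). Hmgcs1, which makes HMG-CoA, measured 125 and 124 FPKM at P7 and 82.9 and 83.8 at P14 (-0.58 ± 0.04, adjusted p = 5.44e-05). Msmo1 and Sc5d, late enzymes of the pathway, rose in mG-cKO by 0.39 ± 0.05 and 0.35 ± 0.04 (adjusted p = 0.000733 and 0.000372), and neither passed in Ctrl (0.05 and 0.09).

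The axonal side of myelination rose in both genotypes. Of 17 genes of the axon, its node of Ranvier and its neurofilaments, 13 rose and 3 fell in mG-cKO (median 0.62), and 14 rose and 2 fell in Ctrl (median 0.95). None passed the test of the difference, which was negative in 14 of the 17. Cntnap1, the paranodal partner of glial contacts, measured 6.31 and 5.89 FPKM at P7 and 34.5 and 29.4 at P14 in mG-cKO and 5.04 and 4.66 FPKM at P7 and 41.1 and 38.98 at P14 in Ctrl. It rose by 2.21 ± 0.08 in mG-cKO (adjusted p = 9.57e-06), and the difference was -0.60 ± 0.11 (adjusted p = 0.117). Kcnab2, a subunit of the juxtaparanodal potassium channels, rose from 14.4 and 14.8 FPKM at P7 to 39.2 and 38.03 at P14 (1.35 ± 0.04, adjusted p = 6.07e-06). Nefh, the heavy neurofilament, rose by 1.52 ± 0.10 (adjusted p = 5.15e-05). Nfasc, which anchors both node and paranode, rose by 0.47 ± 0.04 in mG-cKO and 0.88 ± 0.04 in Ctrl, and the difference was -0.41 ± 0.05 (adjusted p = 0.0556). Scn4b, a sodium channel beta subunit also abundant in striatum, had the largest increase of all genes in mG-cKO, 3.85 ± 0.36 (adjusted p = 0.000302). It measured 1.01 and 0.661 FPKM at P7 and 34.4 and 18.6 at P14, and its libraries ranked as the striatal list did.

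Immature neuron genes fell together. All 22 fell in mG-cKO (median -1.57) and in Ctrl (median -1.70), and 18 fell by at least 1 in mG-cKO. None passed the test of the difference, which was positive, a smaller fall in mG-cKO, in 18 of the 22. Dcx, the microtubule protein of migrating neurons, measured 78.9 and 69.1 FPKM at P7 and 12.3 and 13 at P14 in mG-cKO, a change of -2.45 ± 0.07 (adjusted p = 4.67e-06). Dpysl3, which acts in growth-cone guidance, measured 511 and 475 FPKM at P7 and 69.7 and 80.5 at P14 (-2.702 ± 0.08, adjusted p = 4.67e-06). Draxin, a secreted guidance cue, nearly disappeared, from 12.3 and 11.6 FPKM at P7 to 0.427 and 0.638 at P14 (-3.08 ± 0.08, adjusted p = 4.67e-06). Cd24a, a surface glycoprotein of young neurons, measured 133 and 132 FPKM at P7 and 19.8 and 23.5 at P14 (-2.57 ± 0.08, adjusted p = 6.71e-06). For each of these genes both P14 libraries lay far below both P7 libraries.

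The largest decrease of a coding gene in mG-cKO was that of Trim67, a ubiquitin ligase of developing neurons, at 43.6 and 48.9 FPKM at P7 and 2.61 and 3.41 at P14 (-3.56 ± 0.10, adjusted p = 4.67e-06). St8sia2, which adds the polysialic acid chains of young neurons, fell by 3.08 ± 0.06 on the log2 scale (adjusted p = 4.53e-06), from 34.7 and 32.6 FPKM at P7 to 2.97 and 3.22 at P14. Mex3a, an RNA-binding protein, changed by -2.52 ± 0.11 (adjusted p = 1.39e-05). In Ctrl the changes were -4.17, -3.69 and -2.94, larger in size than in mG-cKO, with differences of 0.61, 0.61 and 0.42 that did not pass (adjusted p = 0.148, 0.065 and 0.288).

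Transcripts of cell-cycle genes fell. Of 22 cell-cycle genes 21 fell in mG-cKO (median -0.60) and 22 in Ctrl (median -0.74). The difference was positive in 19 of the 22 and passed in none. Aurka, a mitotic kinase, did not pass in mG-cKO (-0.32 ± 0.12, adjusted p = 0.0686). Rrm2, the ribonucleotide reductase subunit made for DNA synthesis, measured 6.58 and 6.14 FPKM at P7 and 1.97 and 2.45 at P14 in mG-cKO (-1.2000 ± 0.11, adjusted p = 0.000161). Mki67, present in dividing cells, measured 2.77 and 3.04 FPKM at P7 and 1.17 and 1.25 at P14 (-0.82 ± 0.07, adjusted p = 0.000161). The promoter window of Rrm2 (chr12:24708004-24708253, plus strand, RefSeq, GRCm38.p6) is shown as one of the cell-cycle promoters, with the CCAAT box, or its other strand ATTGG, in capitals.
Rrm2: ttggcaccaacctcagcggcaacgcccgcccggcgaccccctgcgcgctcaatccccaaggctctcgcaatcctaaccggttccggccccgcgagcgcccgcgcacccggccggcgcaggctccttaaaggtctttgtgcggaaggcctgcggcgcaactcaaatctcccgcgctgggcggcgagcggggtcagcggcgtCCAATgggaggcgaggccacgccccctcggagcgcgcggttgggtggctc
That box stood in 18 of 19 cell-cycle windows, in 7 of 15 windows of immature neuron genes and in 34.5% of all 27025 windows. Of 14 progenitor genes 7 fell and 1 rose in mG-cKO, and 10 fell and 1 rose in Ctrl. Tnc, a matrix protein of progenitor zones, fell from 15.6 and 16.95 FPKM at P7 to 4.95 and 4.99 at P14 (-1.53 ± 0.06, adjusted p = 1.18e-05). Fabp7, the fatty-acid carrier of radial glia, measured 294 and 294 FPKM at P7 and 109 and 98.3 at P14 in mG-cKO and 316 and 364 FPKM at P7 and 59.5 and 63.4 at P14 in Ctrl. It fell in both, and its fall was smaller in mG-cKO: -1.495 ± 0.08 against -2.45 ± 0.08, a difference of 0.95 ± 0.11 (adjusted p = 0.0417). Of 12 imprinted genes of early growth 8 fell and 1 rose in mG-cKO. H19 and Cdkn1c among them fell by 2.096 ± 0.14 and 1.28 ± 0.10 on the log2 scale in mG-cKO (adjusted p = 5.69e-05 and 0.000117).

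Synaptic genes rose. Of 24 presynaptic genes 22 rose and 2 fell in each genotype, with medians of 0.54 in mG-cKO and 0.61 in Ctrl. Cplx1, a clamp on vesicle fusion, measured 78.4 and 72 FPKM at P7 and 151 and 146 at P14 in mG-cKO (0.97 ± 0.05, adjusted p = 2.07e-05). Rph3a, a vesicle-trafficking protein, rose by 0.72 ± 0.04 (adjusted p = 2.02e-05). Of 21 postsynaptic genes 13 rose and 2 fell in mG-cKO (median 0.35), and 16 rose and 3 fell in Ctrl (median 0.49). The scaffolds Dlgap3 and Shank3 rose by 0.82 ± 0.04 and 0.64 ± 0.04 (adjusted p = 2.14e-05 and 3.36e-05), and Camk2a, the plasticity kinase, by 1.23 ± 0.09 (adjusted p = 7.17e-05). Respiratory chain genes rose in 18 of 23 in mG-cKO (median 0.29) and 22 of 23 in Ctrl (median 0.39). No member of these lists passed the test of the difference. Its sign was negative in 20 of 24 presynaptic, 16 of 21 postsynaptic and 21 of 23 respiratory chain genes. Over all genes tested it was negative in 8613 and positive in 8154. Whether these lists as sets changed less in mG-cKO was not tested.

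Known exchanges of an early for a late gene were looked at as 13 pairs, by the ratio of the late to the early gene in each library. In both genotypes the ratio was higher in both P14 libraries than in both P7 libraries for all 13 pairs. In mG-cKO the late gene rose in 12 of 13 pairs and the early gene fell in 7, and both held in 6. For the vesicular glutamate transporters, Slc17a7 to Slc17a6, the mG-cKO ratio was 5.89 and 7.14 at P7 and 30.1 and 28.5 at P14. For the sodium channels, Scn1a to Scn3a, it was 0.563 and 0.564 and then 1.32 and 1.21, against 0.507 and 0.505 and then 1.77 and 1.69 in Ctrl. Gabrd to Glra2, tonic GABA receptors against early glycine receptors, gave 0.197 and 0.1797 at P7 and 1.08 and 1.03 at P14 in mG-cKO.

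Further pairs moved through the late gene, the early gene or both. Grin2a, the adult NMDA receptor subunit, rose in mG-cKO from 1.76 and 1.85 FPKM at P7 to 5.23 and 4.96 at P14 (1.12 ± 0.08, adjusted p = 5.77e-05), while Grin2b did not pass (0.02 ± 0.26). The ratio was 0.0773 and 0.072 at P7 and 0.247 and 0.174 at P14. Slc12a5, the chloride exporter that makes GABA inhibitory, rose by 0.67 ± 0.04 (adjusted p = 5.21e-05), and the importer Slc12a2 did not pass (0.01 ± 0.05). Gabra2, a GABA-A receptor subunit of early circuits, measured 13.8 and 13.7 FPKM at P7 and 16.1 and 10.7 at P14 in mG-cKO and 6.92 and 6.55 FPKM at P7 and 8.87 and 9.29 at P14 in Ctrl, so it was higher in both mG-cKO libraries than in both Ctrl libraries at each age. Syt2 and Vamp1, release-machinery isoforms of fast synapses, rose by 1.05 ± 0.10 and 0.89 ± 0.08 (adjusted p = 0.000257 and 0.00021). The matrix pair Acan and Vcan moved through the fall of Vcan, and Acan did not pass (-0.04 ± 0.11). The ratio of Mal to Pdgfra at P14 was 0.392 and 0.279 in mG-cKO and 2.104 and 1.64 in Ctrl, against 0.04604 and 0.0669 and 0.0495 and 0.0381 at P7.

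**Figure D3:**
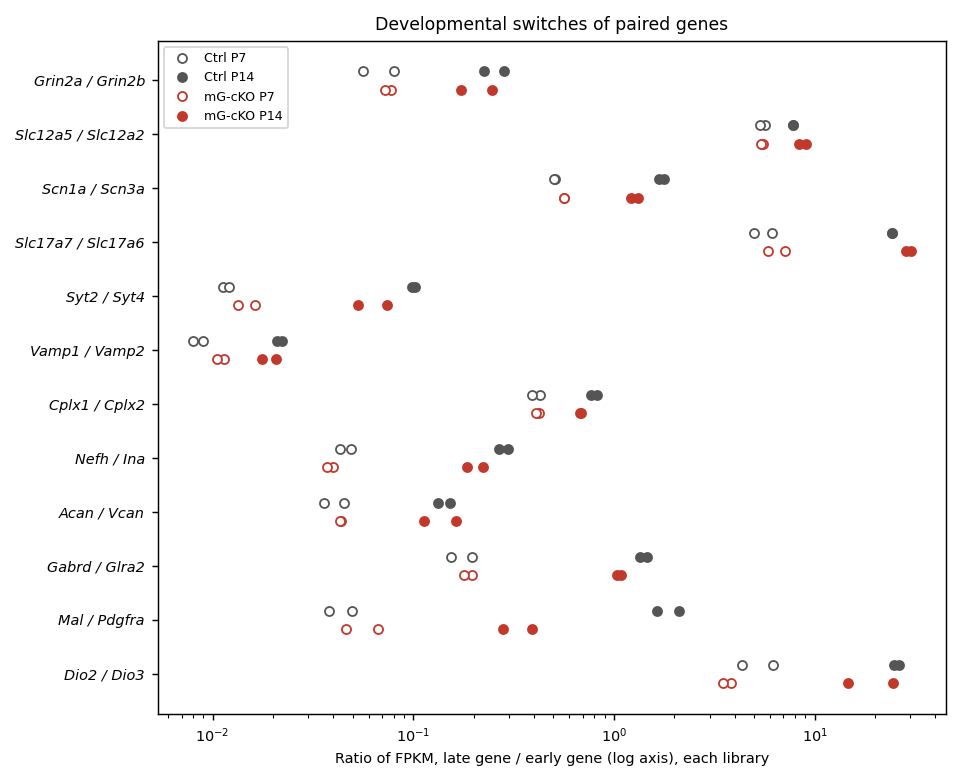
Ratio of the late to the early gene of 12 of the 13 pairs (log axis) in each library, open at P7 and filled at P14, Ctrl in grey and mG-cKO in red. Filled points lie right of open points in every pair drawn, in both genotypes; for Mal to Pdgfra the filled mG-cKO points, 0.279 and 0.392, lie left of the filled Ctrl points, 1.64 and 2.10.

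Inhibitory, interneuron and activity-regulated genes rose more often than they fell. Of 16 receptor and chloride genes of inhibition 8 rose and 2 fell in mG-cKO, and 12 rose and 2 fell in Ctrl. The difference was negative in 14 of the 16 and passed in none. Of 15 glutamate receptor genes 4 rose and 5 fell in mG-cKO, shares near those over all genes tested (21% and 25.8%), against 7 and 5 in Ctrl. Grin1, the shared NMDA receptor subunit, rose by 0.79 ± 0.04 (adjusted p = 2.27e-05). Of 17 interneuron genes 11 rose and 1 fell in mG-cKO (median 0.51), and the difference was negative in 14 and passed in none. Vip, a neuropeptide of one interneuron class, measured 1.64 and 1.99 FPKM at P7 and 6.45 and 6.05 at P14 (1.37 ± 0.08, adjusted p = 3.6e-05), and Calb1 rose by 0.78 ± 0.06 (adjusted p = 0.000121). Pvalb, of fast-spiking interneurons, measured 0.337 and 0.288 FPKM at P7 and 4.15 and 2.85 at P14 in mG-cKO and 0.0336 and 0.3302 FPKM at P7 and 7.66 and 7.39 at P14 in Ctrl, a difference of -1.099 ± 0.23 that did not pass (adjusted p = 0.126). Among 9 genes of the perineuronal net, 5 rose and 1 fell in mG-cKO. Hapln1 and Tnr, which link the net, rose by 1.21 ± 0.09 and 0.68 ± 0.05 (adjusted p = 7.79e-05 and 6.31e-05). Adamts4, a proteoglycan-cleaving enzyme, measured 1.198 and 1.52 FPKM at P7 and 2.78 and 2.61 at P14 in mG-cKO and 1.27 and 1.205 FPKM at P7 and 8.35 and 7.16 at P14 in Ctrl, with a difference of -1.32 ± 0.14 (adjusted p = 0.0266). Its FPKM gain in mG-cKO was 20.5% of the Ctrl gain, near the sheath-list median of 21.3%. Which cells expressed it was not tested.

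Of 15 activity-regulated genes 13 rose and 1 fell in mG-cKO (median 0.88), and 14 rose in Ctrl (median 1.25). The difference was negative in all 15 and passed in none. Its sign was negative in 8613 of the 16767 genes tested. Summed over the list, the P14 libraries measured 281 and 213 FPKM in mG-cKO and 285 and 287 FPKM in Ctrl, so mG-cKO replicate 1 lay near Ctrl. Arc, which acts at active synapses, measured 3.07 and 3.23 FPKM at P7 and 32.1 and 19.02 at P14 in mG-cKO and 3.21 and 2.81 FPKM at P7 and 34.2 and 36.6 at P14 in Ctrl. Its rise was 2.63 ± 0.21 (adjusted p = 0.000161), with the mG-cKO libraries at P14 far apart. Egr4 and Egr3, activity-induced transcription factors, rose by 1.68 ± 0.10 and 0.90 ± 0.07 (adjusted p = 3.28e-05 and 9.36e-05). Cartpt, a neuropeptide precursor, was among the 8 largest increases, from 2.002 and 3.24 FPKM at P7 to 26.3 and 24.5 at P14 in mG-cKO (2.88 ± 0.15, adjusted p = 3.67e-05). In Ctrl it measured 1.48 and 1.69 FPKM at P7 and 7.34 and 7.896 at P14, and the difference between the changes, 1.15 ± 0.22, was not called (adjusted p = 0.118). Of 8 genes of thyroid hormone action, which times brain maturation, 5 rose and 2 fell in each genotype. Dio2, the enzyme that makes the active hormone, measured 5.61 and 6.03 FPKM at P7 and 23.1 and 20.7 at P14 (1.75 ± 0.07, adjusted p = 9.93e-06), and the hormone target Klf9 rose by 1.18 ± 0.07 (adjusted p = 3.15e-05). Of 10 striatal genes 9 rose in mG-cKO and 5 in Ctrl. Gpr6, an orphan receptor of that list, rose by 1.17 ± 0.07 (adjusted p = 3.38e-05), and Penk, the enkephalin precursor, measured 31.6 and 18.1 FPKM at P7 and 98.8 and 63.3 at P14 (1.68 ± 0.32, adjusted p = 0.00583).

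Astrocyte genes rose in both genotypes. Of 20 mature astrocyte genes 16 rose and 0 fell in mG-cKO (median 0.63), and 17 rose in Ctrl (median 0.58). S100b, a calcium-binding protein of astrocytes, measured 8.24 and 9.48 FPKM at P7 and 36.9 and 33.2 at P14 in mG-cKO (1.87 ± 0.07, adjusted p = 1.12e-05). Glul, which turns glutamate into glutamine, measured 127 and 146 FPKM at P7 and 310.1 and 297 at P14 (1.15 ± 0.07, adjusted p = 3.39e-05). Slc1a2, the main glutamate uptake carrier, rose by 1.97 ± 0.11 in mG-cKO and 2.41 ± 0.11 in Ctrl. Gfap, raised in reactive astrocytes, did not pass in either genotype and measured 58.96 and 78.1 FPKM at P7 and 70.8 and 84.97 at P14 in mG-cKO and 38.7 and 37.7 FPKM at P7 and 41.4 and 45.3 at P14 in Ctrl, so every mG-cKO library was above every Ctrl library. Of 18 vascular genes 8 rose and 2 fell in mG-cKO, led by Ly6c1 (1.41 ± 0.08, adjusted p = 2.75e-05) and Slco1a4, a transporter of the blood-brain barrier (1.38 ± 0.10, adjusted p = 7.58e-05). Of 12 fibroblast and collagen genes 3 rose and 5 fell in mG-cKO, of 9 hippocampal genes 4 rose and 2 fell, of 7 thalamic genes 3 rose and 1 fell, of 6 erythroid genes 2 rose, and none of 4 tested choroid plexus genes was called. Over all genes tested 21% rose and 25.8% fell in mG-cKO, and several of these small counts lie near those shares.

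**Figure D4:**
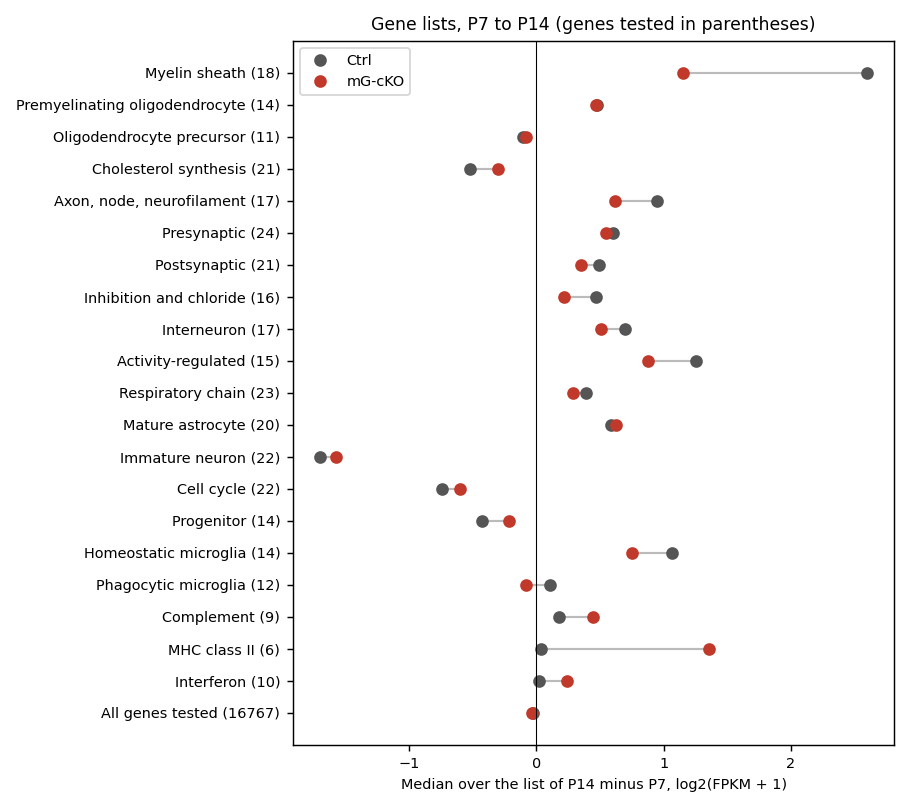
Median change from P7 to P14 in log2(FPKM + 1) over each gene list, Ctrl in grey and mG-cKO in red, with the number of genes tested. The medians lie furthest apart for the myelin sheath (2.60 in Ctrl, 1.15 in mG-cKO) and MHC class II (0.04 and 1.36), and coincide over all genes tested.

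Microglial genes moved in different directions. Of 14 genes of resting microglia 13 rose and 0 fell in mG-cKO (median 0.75), and 12 rose in Ctrl (median 1.07). Tmem119, specific to microglia, measured 1.95 and 2.16 FPKM at P7 and 8.73 and 8.23 at P14 in mG-cKO (1.64 ± 0.08, adjusted p = 2.07e-05) and 1.89 and 2.23 FPKM at P7 and 8.01 and 8.88 at P14 in Ctrl. P2ry12, their nucleotide receptor, rose by 1.61 ± 0.08 (adjusted p = 1.88e-05), from 4.65 and 4.74 FPKM at P7 to 16.6 and 16.3 at P14. Of 12 tested genes linked to phagocytic microglia of early white matter 2 rose and 5 fell in mG-cKO. In Ctrl 5 rose and 4 fell. The shares over all genes tested were 21% rising and 25.8% falling in mG-cKO, and 24.1% and 28.4% in Ctrl. The 2 rising in mG-cKO and the 4 falling in Ctrl lay near those shares. The 2 that rose in mG-cKO were Apoe (0.66 ± 0.07, adjusted p = 0.000403) and Axl (0.37 ± 0.07, adjusted p = 0.00431). Both also rose in Ctrl, by 0.72 and 0.29. Apoe measured 358 and 406 FPKM at P7 and 599 and 604 at P14 in mG-cKO.

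Spp1, osteopontin, measured 24.3 and 38.1 FPKM at P7 and 3.85 and 4.33 at P14 in mG-cKO and 9.88 and 7.69 FPKM at P7 and 3.88 and 3.69 at P14 in Ctrl. It fell in both, by 2.63 ± 0.21 on the log2 scale (adjusted p = 0.000145) and 1.02 ± 0.21 (adjusted p = 0.00594), and the difference, -1.605 ± 0.29, was not called (adjusted p = 0.117). Gpnmb, a glycoprotein of phagocytic cells, measured 2.73 and 2.84 FPKM at P7 and 0.249 and 0.261 at P14 in mG-cKO and 0.306 and 0.347 FPKM at P7 and 0.103 and 0.179 at P14 in Ctrl. It fell in mG-cKO (-1.59 ± 0.09, adjusted p = 2.95e-05), did not pass in Ctrl (-0.22 ± 0.09, adjusted p = 0.0736), and the changes differed by -1.37 ± 0.12 (adjusted p = 0.0149). Both genes were high in the mG-cKO libraries at P7 and closer to the Ctrl values at P14. Itgax, below the 0.5 FPKM rule, had the same order: 0.657 and 0.7998 FPKM at P7 and 0.165 and 0.209 at P14 in mG-cKO and 0.233 and 0.143 FPKM at P7 and 0.08004 and 0.00673 at P14 in Ctrl. Lyz2 fell in both genotypes, and Cd68 and Ctsd did not pass in mG-cKO.

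Complement genes rose in 5 of 9 tested in mG-cKO and 4 of 9 in Ctrl, with none falling. C4b, a classical-pathway component and the complement gene that the series' title names, measured 8.21 and 10.5 FPKM at P7 and 12.7 and 17.2 at P14 in mG-cKO and 1.47 and 1.43 FPKM at P7 and 1.62 and 1.91 at P14 in Ctrl. All mG-cKO libraries were above all Ctrl libraries at both ages. Its change was 0.61 ± 0.16 in mG-cKO (adjusted p = 0.0194) and 0.17 ± 0.16 in Ctrl (adjusted p = 0.403), and the difference, 0.44 ± 0.22, was not called (adjusted p = 0.424). The rise in mG-cKO was not called without mG-cKO P7 replicate 1 (0.45, adjusted p = 0.0927), without mG-cKO P14 replicate 2 (0.41, adjusted p = 0.0723) or with the 4 mG-cKO libraries alone (0.61, adjusted p = 0.0546). C1qc and Itgam, a starter of the pathway and a complement receptor chain, rose by 0.44 ± 0.09 and 0.55 ± 0.09 (adjusted p = 0.00688 and 0.00317). Of 10 interferon-response genes 4 rose in mG-cKO (median 0.24) and 3 rose and 2 fell in Ctrl. For both lists, the shares over all genes tested were 21% rising and 25.8% falling in mG-cKO. They were 24.1% and 28.4% in Ctrl. Ifit3 rose by 0.63 ± 0.09 and Ifi27 by 0.90 ± 0.16 (adjusted p = 0.00149 and 0.00439).

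The MHC class II genes, which present peptides to helper T cells, rose in mG-cKO. Of 6 tested, 5 rose (median 1.36), against 2 in Ctrl (median 0.04), and the difference was positive in all 6 and passed in 3. The 0.5 FPKM rule used mG-cKO libraries alone. H2-Aa was under 0.5 FPKM in every Ctrl library, and the mean of H2-Ab1 over the Ctrl libraries was also under 0.5 FPKM. A gene high only in mG-cKO could thus enter the 6, so their shared direction is partly set by the rule. H2-Ab1, a beta chain, measured 1.65 and 2.35 FPKM at P7 and 15.7 and 17.2 at P14 in mG-cKO and 0.449 and 0.6 FPKM at P7 and 0.616 and 0.316 at P14 in Ctrl. The change in mG-cKO was 2.55 ± 0.14 (adjusted p = 3.24e-05), and the difference was 2.61 ± 0.20 (adjusted p = 0.0094). H2-Aa, its alpha chain, measured 0.508 and 0.479 FPKM at P7 and 4.103 and 4.24 at P14 in mG-cKO and 0.1495 and 0.2096 FPKM at P7 and 0.231 and 0.362 at P14 in Ctrl (1.79 ± 0.09 in mG-cKO, difference 1.66 ± 0.13, adjusted p = 2.14e-05 and 0.0094). H2-Eb1 measured 1.27 and 1.096 FPKM at P7 and 6.56 and 5.799 at P14 in mG-cKO and 0.7395 and 0.871 FPKM at P7 and 0.487 and 0.846 at P14 in Ctrl (1.72 ± 0.12, difference 1.84 ± 0.17, adjusted p = 7.17e-05 and 0.0178). For all 3 genes the P14 mG-cKO libraries stood above the other 6 libraries. Cd74, the invariant chain, rose in both genotypes, by 0.998 ± 0.10 and 0.61 ± 0.10 (difference 0.39 ± 0.14, adjusted p = 0.289). Ciita, the master regulator of the class, was below the 0.5 FPKM rule, at 0.373 and 0.351 FPKM at P7 and 0.428 and 0.465 at P14 in mG-cKO and 0.467 and 0.479 FPKM at P7 and 0.544 and 0.437 at P14 in Ctrl. H2-Oa, the other listed gene below the rule, did not exceed 0.172 FPKM in any library. With no filter the differences of Ciita and H2-Oa were 0.07 and -0.03 and were not called (adjusted p = 0.854 and 0.946).

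The promoter window of H2-Aa (chr17:34287824-34288073, minus strand, RefSeq, GRCm38.p6) is shown because the class shares a conserved promoter block. Capitals mark ATTGG, the core of its Y box, on either strand.
H2-Aa: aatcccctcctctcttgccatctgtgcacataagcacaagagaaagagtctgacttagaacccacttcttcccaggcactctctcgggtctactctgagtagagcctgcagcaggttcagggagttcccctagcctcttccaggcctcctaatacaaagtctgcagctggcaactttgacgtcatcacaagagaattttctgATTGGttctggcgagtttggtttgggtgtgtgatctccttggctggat
Of 5 class II windows 4 held this core, against 34.5% of all windows. The 3 genes with a called difference lie together at chr17:34257689-34316674 in the GRCm38 annotation.

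**Figure D5:**
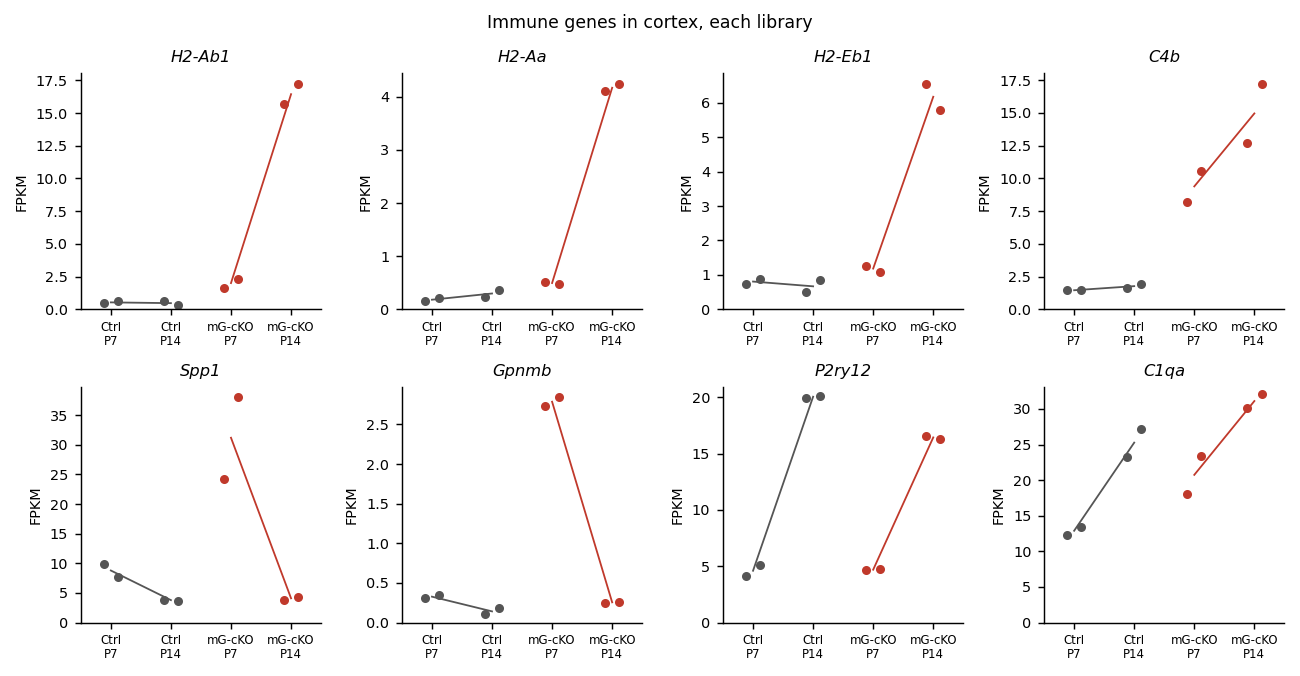
FPKM of 8 immune genes in each library; points are libraries, 2 per group, and lines join group means. H2-Ab1 is above 15 FPKM only in the P14 mG-cKO libraries (15.7 and 17.2), and Gpnmb is above 2.7 FPKM only in the P7 mG-cKO libraries (2.73 and 2.84).

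Outside these lists, the metal transporter gene Slc39a11 and the glutamine transporter gene Slc38a3 also had a more positive change in mG-cKO. Slc39a11 measured 9.45 and 9.05 FPKM at P7 and 20.4 and 16.8 at P14 in mG-cKO and 7.19 and 6.62 FPKM at P7 and 4.68 and 4.77 at P14 in Ctrl, rising in mG-cKO and falling in Ctrl (difference 1.39 ± 0.12, adjusted p = 0.0149). Slc38a3 measured 17.2 and 17.8 FPKM at P7 and 23.2 and 23.4 at P14 in mG-cKO and 15.6 and 16.1 FPKM at P7 and 14.3 and 14.4 at P14 in Ctrl (difference 0.53 ± 0.06, adjusted p = 0.0266). Among 13 genes that an earlier account of these data had called different between mG-cKO and Ctrl, 3 rose and 4 fell between P7 and P14, also near the shares over all genes tested. That list was chosen on these samples and is no independent evidence. Cox6a2, a muscle-type respiratory subunit, rose from 9.44 and 11.8 FPKM at P7 to 40.4 and 42.3 at P14 in mG-cKO (1.87 ± 0.11, adjusted p = 4.95e-05), and the protocadherin Pcdhgb4 fell from 6.54 and 6.19 FPKM at P7 to 2.84 and 3.42 at P14 (-0.84 ± 0.09, adjusted p = 0.000466).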

How the data were processed

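RNA from mouse cortex was sequenced with TRIzol extraction and an NEBNext Ultra RNA kit, per the labels' protocols. Per the submitters' processing notes, Trim Galore 0.6.5, STAR 2.5.3a and featureCounts 2.0.4 and the mm10 build were used. The authors deposited FPKM per gene. Strand of counting is not given in the sources used here. Whole multiples of 1 read (tolerance 0.05 reads) in 99.1% to 99.3% of low values gave the depths. Gene types and positions came from GENCODE M21.

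FPKM plus a pseudocount of 1 was log2-transformed and fitted with limma 3.58.1 (trend, robust; 1 mean per group of 2 libraries, 4 residual degrees of freedom), tested on simulated data. No set was tested. Some genes are not reported here by name. The 102 named genes were Mal, Mbp and C4b, the 8 largest called coding changes in each direction with groups that do not overlap (predicted Gm and Rik symbols left out), the 2 called members of lowest adjusted p in each list, all pair members and the 8 largest called differences each way by the same filters. The text also names other list members that this rule did not pick, among them Cnp, Adamts4, Camk2a, Cd74 and Opalin. Members, lists, pairs, motifs and tests were chosen with earlier results of these data known. Alternatives changed the pseudocount (0.1), filter (none, 1 FPKM), scaling, libraries and replicate block, and 1, chosen after seeing the data, left out both Ctrl libraries with high Ttr.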

Additional observations from a re-analysis of the deposited data

Results flagged for a closer look

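The 17 genes below were picked out because the change from P7 to P14 differed between mG-cKO and Ctrl by the limma test of that difference (mG-cKO minus Ctrl, log2 scale). None passed without Ctrl P7 replicate 2. In the myelin sheath list the differences were -2.76 for Mobp, -2.56 for Mal, -1.95 for Mag, -1.90 for Mbp, -1.82 for Cldn11, -1.53 for Gsn, -1.48 for Mog, -1.30 for Ppp1r14a and -1.10 for Tspan2. The matrix protease Adamts4 differed by -1.32 and the phagocytic marker Gpnmb by -1.37. More positive changes in mG-cKO were those of H2-Ab1 (2.61), H2-Eb1 (1.84), H2-Aa (1.66), Slc39a11 (1.39), Fabp7 (0.95) and Slc38a3 (0.53). Gpnmb and H2-Aa were under 0.5 FPKM in every Ctrl library and passed the 0.5 FPKM rule through mG-cKO only. H2-Ab1 had a mean under 0.5 FPKM over the Ctrl libraries, so it too passed through mG-cKO only.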

How the results depend on the processing

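With all 20 libraries in the fit, 630 genes rose and 571 fell in mG-cKO (1201 in all), 964 and 866 in Ctrl (1830), and 3 and 2 differed upwards and downwards (5), and 41 of the 102 named changes in mG-cKO were no longer called. Other settings left the mG-cKO counts within 1.5 times, with 5801 to 6228 genes when a library was left out. Without both Ctrl libraries with high Ttr, an alternative chosen after seeing the data, 2635 genes rose and 3034 fell in Ctrl (5669), and 0 differed; the lone Ctrl library at each age was assumed to vary like the other groups.

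The count of differing genes moved most. It was 73 (19 up, 54 down) with the 16 libraries of replicates 1 and 2, P1 and P45 included. It was 8 (2 and 6) at a pseudocount of 0.1, and 12 (3 and 9) with no filter. Leaving out 1 library gave 0 to 24 in all, 0 to 9 up and 0 to 15 down. The cause was not tested. With the replicate number as a block, 18 genes differed (4 up) and 7664 changed in mG-cKO. The numbers are not shown to pair the libraries: deviations of same-numbered mG-cKO libraries correlated by 0.05 between the ages.

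Signs of uncalled changes turned without 1 mG-cKO library: leave-one-out values ran from -0.139 to 0.051 for Acan, from -0.335 to 0.215 for Gabra2, from -0.183 to 0.227 for Grin2b and from -0.042 to 0.061 for Slc12a2. Gabra2 was called lower without mG-cKO P14 replicate 1 and higher without replicate 2. List medians in mG-cKO kept their values within replicate spread in 178 of 204 repeats and moved in 26. FPKM near 0 limits Opalin, Ermn and similar genes, whose fold depends on the pseudocount.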

Other observations

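Genes outside the rule for named genes, chosen after their values were seen, also passed the test of the difference. The 0.5 FPKM rule used mG-cKO libraries alone. So 2310043L19Rik, Gm37858 and Skiv2l-ps1, under 0.5 FPKM in every Ctrl library, entered the test through mG-cKO only. Their calls are therefore no independent evidence of a difference. The long noncoding gene 2310043L19Rik measured 29.9 and 35.5 FPKM at P7 and 5.51 and 5.75 at P14 in mG-cKO and 0.0502 and 0.141 FPKM at P7 and 0 and 0.0926 at P14 in Ctrl. Its neighbour Gm37858, on the same stretch of chromosome 1, measured 1.79 and 1.42 FPKM at P7 and 0.0966 and 0.0313 at P14 in mG-cKO and 0.0285 and 0 FPKM at P7 and 0 and 0 at P14 in Ctrl. Both fell in mG-cKO from a level that Ctrl did not have at either age. The pseudogene Skiv2l-ps1, on chromosome 17 as C4b and the class II genes are, measured 1.98 and 1.97 FPKM at P7 and 4.88 and 5.74 at P14 in mG-cKO and was listed at 0 in all 4 Ctrl libraries. It is annotated as a pseudogene, so reads shared with its parent gene make its level uncertain. The pseudogene Gm5417 measured 9.73 and 14.8 FPKM at P7 and 12.6 and 14.1 at P14 in mG-cKO and 14.7 and 13.5 FPKM at P7 and 2.52 and 1.84 at P14 in Ctrl, under the same uncertainty.

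G530011O06Rik and Gm15247, noncoding neighbours on the X chromosome, rose in mG-cKO and fell in Ctrl. G530011O06Rik measured 0.274 and 0.335 FPKM at P7 and 1.58 and 1.82 at P14 in mG-cKO and 1.795 and 1.73 FPKM at P7 and 0.828 and 0.5703 at P14 in Ctrl. Gm15247, annotated as antisense and counted with a strand setting not given in the sources used here, measured 0.498 and 0.124 FPKM at P7 and 1.87 and 2.01 at P14 in mG-cKO and 3.82 and 2.32 FPKM at P7 and 0.596 and 0.722 at P14 in Ctrl. The coding genes Npnt, Lgi3 (-0.72), Fam205c (-0.71), Sema4d (-0.56) and Mgll (-0.52) rose less in mG-cKO than in Ctrl. Npnt, nephronectin, measured 7.99 and 8.27 FPKM at P7 and 11.2 and 11.3 at P14 in mG-cKO and 9.39 and 9.02 FPKM at P7 and 25.4 and 27.6 at P14 in Ctrl.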
